A study of Mus musculus with 9 samples.

Results

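The testicans and the SPARC family are a group of secreted matrix proteins that share a follistatin-like domain and, in most members, a calcium-binding module first described in SPARC. The 8 genes examined here were taken by symbol from a fixed list: the testicans Spock1, Spock2 and Spock3, Sparc, Sparcl1, the SPARC-related modular proteins Smoc1 and Smoc2, and Fstl1. They are 8 of the 22092 mouse genes with counts, and all 8 were among the 14427 genes that entered the test. Each gene was read from its transcript with the highest CPM (its counts scaled to a common library size) summed over the libraries.

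RNA attached to GFP-tagged ribosomes was purified by translating ribosome affinity purification (TRAP) and sequenced in 9 libraries. Each whole astrocyte TRAP library (3 in all) was made from 1 brain, and the 6 endfeet TRAP libraries came from purified brain vessels, to which astrocyte endfeet stay attached, pooled from 8 mice each. All mice were 2 months old, of the strain Aldh1L1 JD130, and carried the transgene tg:Aldh1L1-L10aGFP, in which the astrocyte promoter of Aldh1l1 drives the ribosomal protein L10a fused to GFP. The endfeet material therefore differs from the whole astrocyte material both in the part of the cell and in the tissue it was purified from, and no group was treated. The choroid plexus was taken out of the whole brains before extraction.

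Proteins of this family are matricellular: they sit in the extracellular matrix and modulate how cells bind collagen, proteases and growth factors more than they build structure. Testicans are proteoglycans that carry heparan sulfate or chondroitin sulfate chains, and are abundant in brain. Among astrocyte products, the hevin protein made from Sparcl1 is known for promoting synapse formation, and SPARC for opposing it. The astrocyte endfoot faces the basal lamina of the vessel, a sheet of laminin, collagen IV and proteoglycan.

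Gene totals were 35984144 to 43521208 counts in the whole astrocyte libraries and 2319495 to 13450588 in the endfeet libraries, the smallest in endfeet 6. A floor of 3 counts corresponded to 0.0689 to 0.0834 CPM in whole astrocyte libraries and to 0.223 to 1.29 CPM in endfeet libraries, for counting error only. These floors use the gene totals, whereas the CPM of genes use library sizes scaled by TMM. For endfeet 6 the scaled size was 2189079, so its floor on that scale is somewhat higher. The common dispersion, a measure of the spread between replicates, was 0.014 among whole astrocyte and 0.705 among endfeet libraries. Endfeet 6 and endfeet 1 stand apart from the rest. Endfeet 6 had the fewest counts, and endfeet 1 had the highest summed level of 8 choroid plexus markers, 90611 CPM against 6747 to 39851 CPM in the other endfeet libraries and 71.2 to 1535 CPM in whole astrocyte. The numbers the libraries carry place endfeet 1, 2 and 3 in a series of their own, with endfeet 4, 5 and 6 and all whole astrocyte libraries in another. Fold changes within that shared series are given beside those of the 8 members, and were not computed for the gene lists, shares and transcripts.

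The labelled cell type was checked with markers. The 8 astrocyte markers summed to 22029 to 24018 CPM in whole astrocyte and 8652 to 27017 CPM in endfeet libraries. Markers of the cells of the vessel were not at 0 in either group. Summed over 8 genes each, endothelial markers were 44.0 to 55.1 CPM in whole astrocyte and 3484 to 4682 CPM in endfeet libraries, mural markers 32.5 to 35.7 and 3503 to 7965 CPM, and fibroblast markers 29.9 to 42.7 and 793 to 1540 CPM. All 8 genes of each of these 3 lists were called higher in endfeet. Of the 8 astrocyte markers, 0 were called higher and 4 lower. The 8 neuron markers summed to 3446 to 4002 CPM in whole astrocyte and 978 to 1984 CPM in endfeet libraries. Fewer cells of a type and less RNA per cell cannot be told apart in such libraries, and the part of vessel cell RNA in the differences below was not tested.

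Promoter windows give a first view of the genes at the sequence level, and Spock2, with the largest rise, is shown beside Fstl1, which also rose, and Spock1, whose groups overlapped. RefSeq windows of 300 bases, from 250 before to 50 after a start site on GRCm38.p6, were at hand for 5 of the 8 genes and were named by symbol. Capitals mark the GC box GGGCGG or its reverse CCGCCC, which was searched on both strands.
Spock2, chr10:60106007-60106306, plus strand: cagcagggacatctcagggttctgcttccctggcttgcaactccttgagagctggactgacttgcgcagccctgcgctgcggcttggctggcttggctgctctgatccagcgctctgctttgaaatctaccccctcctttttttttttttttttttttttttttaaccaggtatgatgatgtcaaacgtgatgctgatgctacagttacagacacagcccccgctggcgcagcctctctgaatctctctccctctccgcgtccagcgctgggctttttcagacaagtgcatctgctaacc
Fstl1, chr16:37776805-37777104, plus strand: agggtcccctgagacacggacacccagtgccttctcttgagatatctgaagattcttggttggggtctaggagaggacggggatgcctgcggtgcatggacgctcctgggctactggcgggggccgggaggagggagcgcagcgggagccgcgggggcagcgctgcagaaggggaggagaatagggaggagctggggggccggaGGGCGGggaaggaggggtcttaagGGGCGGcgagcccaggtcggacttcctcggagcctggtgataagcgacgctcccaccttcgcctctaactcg
Spock1, chr13:57908283-57908582, minus strand: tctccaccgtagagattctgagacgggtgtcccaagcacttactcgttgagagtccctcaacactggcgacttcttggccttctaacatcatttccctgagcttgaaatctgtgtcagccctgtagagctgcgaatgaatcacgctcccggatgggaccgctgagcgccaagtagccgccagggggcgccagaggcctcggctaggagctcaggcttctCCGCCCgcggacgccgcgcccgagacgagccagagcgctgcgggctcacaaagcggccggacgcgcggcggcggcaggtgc
The Spock2 window held 0 GC boxes, that of Fstl1 2 and that of Spock1 1, and 35.7% of all 32851 windows of this length held at least 1. The TATA box TATAAA, or its reverse TTTATA, was in 0 of the member windows and in 13.6% of all windows. The share of G and C was 52.3% for Spock2, 66.7% for Fstl1 and 64.0% for Spock1, with a median of 52.7% over all windows. A match describes these letters only. The window listed for Sparc lies 3103 bases from the start of its counted transcript and is not shown.

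Of the 8 members, 5 were called higher in endfeet TRAP and 0 lower, by edgeR's quasi-likelihood test at an adjusted p of at most 0.05. Among all 14427 tested genes, 20.7% were called higher and 13.9% lower. With limma voom, which gives each group its own weight, the calls over all genes were 3928 higher and 4485 lower against 2991 and 2006 in edgeR. The median log2 fold change, endfeet minus whole astrocyte, was 2.52 over the 8 members and 0.10 over all tested genes. For 4 members every endfeet library lay above every whole astrocyte library, which was so for 18.9% of all tested genes.

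**Figure D1:**
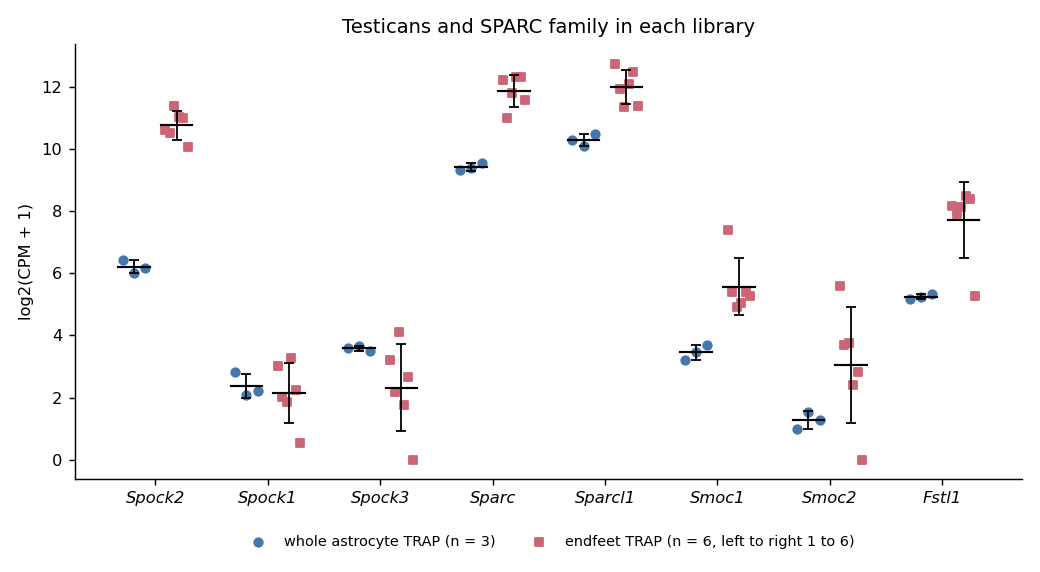
Level of each member in each library as log2(CPM + 1), with the mean and SD of each group in black (whole astrocyte TRAP, circles, n = 3; endfeet TRAP, squares, n = 6, replicates 1 to 6 from left to right). Spock2, Sparc, Sparcl1 and Smoc1 show no overlap between the groups, and the lowest square of Fstl1 and Smoc2 is endfeet 6.

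Spock2, at chr10:60106219-60135198 on the plus strand, encodes testican-2 and showed the largest fold change of the family. Its level was 84.8, 63.3 and 71.7 CPM in whole astrocyte libraries 1 to 3. In endfeet libraries 1 to 6 it was 1540, 1462, 2681, 2058, 2033 and 1061 CPM. Every endfeet library was above every whole astrocyte library by a wide margin, and the lowest endfeet value was still far from the highest whole astrocyte value. The mean was 73.3 ± 10.9 CPM (SD, n = 3) in whole astrocyte and 1806 ± 570 CPM (SD, n = 6) in endfeet, a ratio of means of 24.6. The log2 fold change was 4.62 (SE 0.37, adjusted p = 1.51e-06). Within the library series that holds both groups, it was 4.42 (adjusted p = 0.000132).

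The other 2 testicans did not pass the test. Spock1, at chr13:57421195-57908332 on the minus strand, encodes testican-1, an inhibitor of cathepsin L and of the activation of matrix metalloproteinases. It had 123 to 226 counts in whole astrocyte libraries, or 6.11, 3.26 and 3.62 CPM. In endfeet libraries 1 to 6 it was 7.13, 3.10, 2.63, 8.61, 3.76 and 0.457 CPM, from 1 to 107 counts. The endfeet range was wider and took in the whole astrocyte range, with 2 endfeet libraries above it, 3 below it and endfeet 5 within it. The log2 fold change was -0.0026, and 2 standard errors to each side reach from -1.78 to 1.78 (adjusted p = 0.998), so that neither a rise nor a fall of this size could be shown. Within the shared series the log2 fold change was -0.09 (adjusted p = 0.948).

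Spock3, at chr8:62951009-63357103 on the plus strand, encodes testican-3, which also inhibits the activation of matrix metalloproteinases. It was 11.03, 11.8 and 10.4 CPM in whole astrocyte libraries and 8.26, 3.56, 16.3, 2.41, 5.38 and 0 CPM in endfeet libraries 1 to 6. Endfeet 3 was above the whole astrocyte range and the other 5 endfeet libraries below it. Endfeet 6 had 0 counts, which allows up to 1.29 CPM by its gene total. Its log2 fold change was -0.87 (SE 0.96, adjusted p = 0.512), with 2 standard errors reaching from -2.79 to 1.04. In the shared series it was -2.13 (adjusted p = 0.130). A Spock3 transcript with a retained intron, Spock3-205, had 5.39% to 6.72% of the counts of the representative transcript in whole astrocyte libraries. In endfeet 1, 3, 4 and 5 it had 4.55%, 1.61%, 0% and 4.11%, from 0 to 4 counts, and in endfeet 2 it had 33 counts against 31.

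Per kilobase of transcript, Spock2 made up most of the testican signal. It held 66.3% to 69.5% of the summed CPM per kb of the 3 testicans in whole astrocyte libraries and 97.4% to 99.8% in endfeet libraries. These ranges do not overlap, and the difference was not tested. Its size depends on division by length. Without it, Spock2, Spock1 and Spock3 held on average 3.55%, 0.210% and 0.541% of the CPM of the family in whole astrocyte libraries. In endfeet libraries they held 18.02%, 0.0383% and 0.0578%.

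Sparc, at chr11:55394500-55423183 on the minus strand, encodes a glycoprotein that binds collagen and growth factors. It was 637, 669 and 745 CPM in whole astrocyte libraries. In endfeet libraries 1 to 6 it was 4718, 2034, 3528, 5041, 5024 and 3068 CPM, again with all 6 above the whole astrocyte range. Endfeet 2 was the lowest of the endfeet libraries and endfeet 4 and 5 the highest. The log2 fold change was 2.51 (SE 0.34, adjusted p = 9.79e-05), with a ratio of means of 5.71. In the shared series it was 2.55 (adjusted p = 0.000399).

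Sparcl1, at chr5:104079111-104113733 on the minus strand, encodes hevin. It was 1250, 1085 and 1411 CPM in whole astrocyte libraries and 6803, 3844, 2611, 4299, 5668 and 2668 CPM in endfeet libraries 1 to 6. All 6 endfeet libraries lay above the whole astrocyte range, with endfeet 3 and 6 closest to it. Its log2 fold change was 1.79 (SE 0.35, adjusted p = 0.00163), a ratio of means of 3.46. In the shared series it was 1.62 (adjusted p = 0.00479). An antisense gene, Gm26703, overlaps exons of the counted transcript. Counting is not stated to use strand, so that reads of the 2 genes cannot be told apart, and the same holds for Smoc2 and 4930474M22Rik.

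Fstl1, at chr16:37776873-37836514 on the plus strand, encodes a secreted follistatin-like protein that binds BMP4 and the receptor DIP2A. It was 35.4, 36.6 and 39.3 CPM in whole astrocyte libraries. In endfeet libraries 1 to 6 it was 288, 240, 277, 359, 333 and 37.5 CPM. The 5 other endfeet libraries lay above the whole astrocyte range, whereas endfeet 6, with 82 counts, lay within it. Its log2 fold change was 2.79 (SE 0.56, adjusted p = 0.0018), a ratio of means of 6.90. In the shared series, which includes endfeet 6, it was 2.58 (adjusted p = 0.0257), and without endfeet 6 over all other libraries it was 3.02 (adjusted p = 4.51e-06).

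Smoc1, at chr12:81026808-81186414 on the plus strand, encodes a basement membrane protein that antagonises BMP signalling. It was 8.24, 10.1 and 11.9 CPM in whole astrocyte libraries and 166, 41.6, 29.2, 32.1, 41.4 and 37.5 CPM in endfeet libraries 1 to 6. All endfeet libraries lay above the whole astrocyte range, and endfeet 1 stood far above the rest of its group. The log2 fold change was 2.52 (SE 0.65, adjusted p = 0.00895). In the shared series, which lacks endfeet 1, it was 1.75 (adjusted p = 0.00948), and with only endfeet 1 left out it was 1.83 (adjusted p = 0.00241).

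Smoc2, at chr17:14279506-14404790 on the plus strand, encodes the closest relative of Smoc1. It was 0.973, 1.93 and 1.45 CPM in whole astrocyte libraries, from 36 to 73 counts. In endfeet libraries 1 to 6 it was 47.1, 11.95, 12.7, 4.35, 6.04 and 0 CPM, from 251 counts in endfeet 1 to 0 in endfeet 6. Endfeet 1 to 5 lay above the whole astrocyte range. The 0 counts of endfeet 6 allow up to 1.29 CPM by its gene total, so that this library cannot be placed below that range. Its log2 fold change was 3.23 (SE 1.28) and did not pass the test (adjusted p = 0.0673), although it did without endfeet 6 (3.49, adjusted p = 0.0117). In the shared series it was 1.18 (adjusted p = 0.419).

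**Figure D2:**
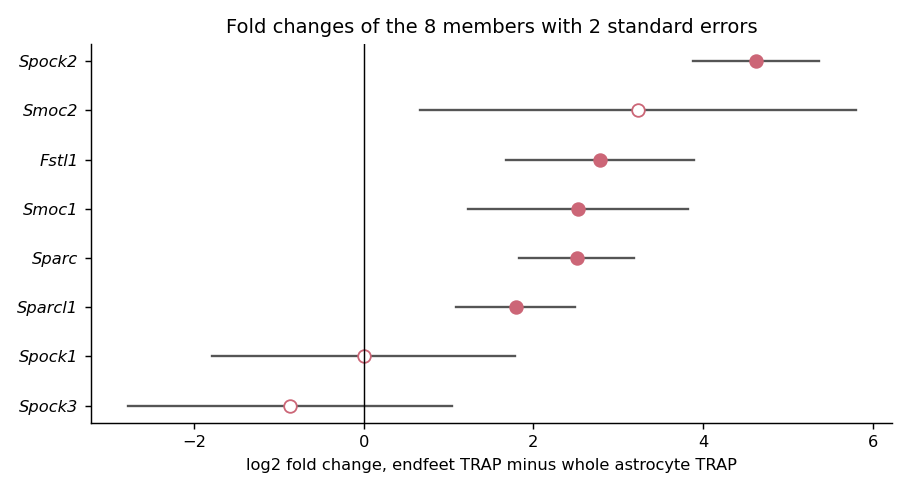
Log2 fold change of the 8 members, endfeet TRAP minus whole astrocyte TRAP, with bars of 2 standard errors to each side from edgeR. Filled points passed the test at an adjusted p of 0.05, and Spock2 is highest at 4.62 while the bars of Spock1 and Spock3 cross 0.

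The library with most choroid plexus marker RNA, endfeet 1, was also the highest in Smoc1 and Smoc2. Endfeet 1 had the highest sums of fibroblast and ependymal markers among endfeet libraries as well, 1540 and 320 CPM. Endfeet 5 was close behind in fibroblast markers, at 1484 CPM. All 8 choroid plexus markers were detected in both groups, and 7 were called higher in endfeet. Their summed level in endfeet 1 to 6 was 90611, 39851, 26273, 13926, 6747 and 18586 CPM. Endfeet 2 and 3 followed endfeet 1 in Smoc2, at 11.95 and 12.7 CPM, while endfeet 2 and endfeet 5, the one with least choroid plexus RNA, were next and nearly equal in Smoc1. Spock2 in endfeet 1 to 6 was 1540, 1462, 2681, 2058, 2033 and 1061 CPM, highest in endfeet 3. Endfeet 3 also had the highest sum of endothelial markers, 4682 CPM, and the lowest sum of astrocyte markers, 8652 CPM, among endfeet libraries. Endfeet 2 came next in both, at 4227 and 11182 CPM, but its Spock2 level was the lowest apart from endfeet 6. The whole brains had lost their choroid plexus before extraction. The part of RNA from choroid plexus, ependyma, fibroblasts or endothelium in these values was not tested.

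**Figure D3:**
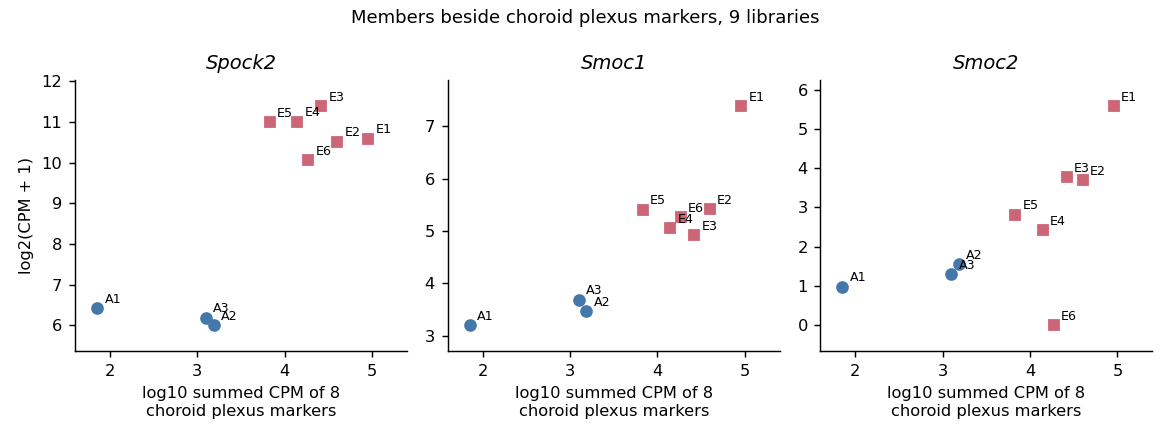
Log2(CPM + 1) of Spock2, Smoc1 and Smoc2 (vertical axes) against the log10 summed CPM of 8 choroid plexus markers (horizontal axes) in whole astrocyte libraries 1 to 3 (A1 to A3, circles) and endfeet libraries 1 to 6 (E1 to E6, squares). E1 is at the right. It is the highest library for Smoc1 and Smoc2, and E3 is the highest for Spock2.

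Levels were compared between genes per kilobase of the representative transcript. In whole astrocyte libraries Sparcl1 was the most abundant member, at 453 ± 59 CPM per kb (SD, n = 3), followed by Sparc at 297 ± 24.2 and, well below, Spock2 at 13.99 ± 2.07 and Fstl1 at 9.79 ± 0.529. Spock3, Spock1 and Smoc1, at 3.46, 3.28 and 2.93 CPM per kb, had overlapping ranges, and Smoc2 was last at 0.512. In endfeet libraries Sparc and Sparcl1, at 1697 ± 534 and 1564 ± 603 CPM per kb (SD, n = 6), had overlapping ranges, with Sparc the higher in 4 of 6 libraries. The order of these genes depends on how a gene is counted. With counts summed over all transcripts of a gene and not divided by length, Sparc, with 6 transcripts that share reads against 1 for Sparcl1, had the higher share of the family in all 9 libraries, at means of 54.5% against 37.9% in whole astrocyte and 54.8% against 23.9% in endfeet.

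Spock2 came next in endfeet libraries at 345 ± 109 CPM per kb, below both in all 6 libraries. Fstl1 followed at 67.5 ± 30.3 and Smoc1 at 16.8 ± 15.4, with overlapping ranges. Smoc2, Spock1 and Spock3 were at 4.83, 3.24 and 1.87, also with overlapping ranges. The place of Spock2 also depends on counting. In endfeet 3, without division by length, it held 29.3% of the family against 28.5% for Sparcl1. With counts also summed over transcripts, these shares were 29.0% and 15.8%. Among all 22092 genes ranked by mean CPM per kb, Spock2 moved from position 4503 in whole astrocyte to 60 in endfeet. Sparc moved from 126 to 6 and Sparcl1 from 59 to 7.

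The balance among members shifted with these changes. Spock2 took 1.58% to 2.11% of the summed CPM per kb of the 8 members in whole astrocyte libraries and 5.93% to 16.6% in endfeet libraries, its highest share in endfeet 3. Sparcl1 took 55.0% to 59.1% and 30.7% to 52.8%, and Sparc 36.1% to 40.6% and 33.5% to 52.8%. The ranges of Spock2 and Sparcl1 do not overlap between groups, whereas those of Sparc do. The ratio of Spock2 to Sparc was 0.0416 to 0.0585 in whole astrocyte and 0.143 to 0.334 in endfeet libraries, that of Sparcl1 to Sparc 1.35 to 1.64 and 0.617 to 1.58. Without division by length, the mean Spock2 share was 3.55% in place of 1.79% in whole astrocyte and 18.02% in place of 9.76% in endfeet libraries. These shares and ratios were not tested.

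**Figure D4:**
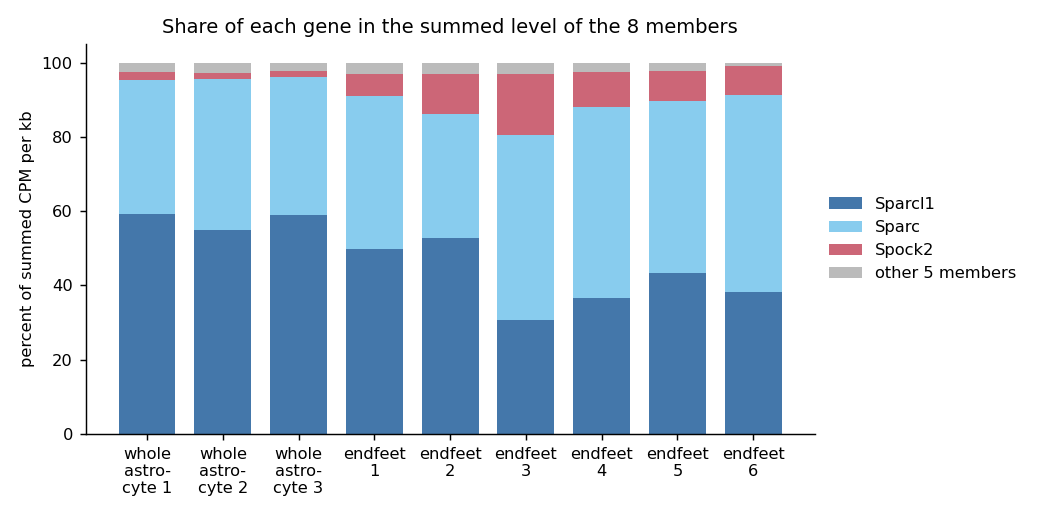
Share of Sparcl1, Sparc, Spock2 and the other 5 members together in the summed CPM per kb of the family, in percent, for each whole astrocyte and endfeet TRAP library. The Spock2 segment is 1.58% to 2.11% in the whole astrocyte libraries and 5.93% to 16.6% in the endfeet libraries.

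Reads along Spock2 were compared between its transcripts. Spock2-201, of 5238 bases, has 1269 coding bases and a 3′ UTR of 3720 bases. Spock2-203, also annotated as protein coding, uses another small exon and ends 1290 bases earlier, which is the last 24.6% of Spock2-201. A further 249 bases of Spock2-201 lie before the start of Spock2-203. In all, 29.6% of the bases of Spock2-201 are not in Spock2-203. Reads on Spock2-203 were 68.2% to 74.2% of those on Spock2-201 in whole astrocyte libraries and 73.7% to 85.0% in endfeet libraries. The reads that Spock2-201 had beyond Spock2-203 were thus 25.8% to 31.8% and 14.98% to 26.3% of its counts, lowest in endfeet 1. The ranges overlap. Spock2-202 shares 1174 of the bases of Spock2-201, or 22.4% of them. It had 2.14% to 3.03% of the counts of Spock2-201 in whole astrocyte and 0.219% to 2.84% in endfeet libraries. Few reads were therefore counted on these shared bases in either group.

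For Sparc, a short transcript held a larger part of the counts. Sparc-206, which shares 640 bases, or 27.8%, of the representative transcript, had 12.4% to 13.0% of its counts in whole astrocyte and 8.80% to 15.6% in endfeet libraries. The retained-intron transcripts Sparc-203 and Sparc-205 had 23.1% to 25.2% and 18.2% to 26.5%, also in overlapping ranges. Spock2-203 and Sparc-206 share reads with the representative transcripts, and transcript amounts cannot be read from these counts.

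Proteases and their inhibitors, among which testicans are known to act, were taken as a list. Of 13 tested, 5 were called higher, 1 lower and 7 were not called, with a median log2 fold change of 1.90. Ctsk, a collagen-degrading cathepsin, rose by 4.13 on the log2 scale (SE 1.34, adjusted p = 0.0298) from 0.488 to 8.66 CPM on average. Timp3, a matrix-bound inhibitor of metalloproteinases, rose by 2.72 (SE 0.32, adjusted p = 3.42e-05), from 259 to 1707 CPM. Ctsb, a lysosomal cathepsin, rose by 2.04 (SE 0.29, adjusted p = 0.000163). Timp4, another metalloproteinase inhibitor, fell by 3.10 (SE 0.57, adjusted p = 0.0011), from 451 to 52.4 CPM.

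All 7 tested collagens of the list that SPARC proteins bind were called higher, with a median log2 fold change of 6.30, and Col2a1 was too low to be tested. Col4a1 and Col4a2, which form the collagen IV of the basal lamina, rose by 7.08 (SE 0.48) and 6.90 (SE 0.47), from means of 1.68 and 1.77 CPM to 228 and 213 CPM (adjusted p = 3.71e-07 and 3.92e-07). Col5a1, a fibrillar collagen, rose by 6.63 (SE 0.90, adjusted p = 0.000107) from 0.189 to 19.5 CPM. Col1a1, Col1a2 and Col3a1 are also on the fibroblast marker list.

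Of 12 other tested genes for proteins with follistatin or Kazal-like domains, 4 were called higher and 0 lower, with a median log2 fold change of 1.72. Reck, which encodes a membrane-anchored metalloproteinase inhibitor, rose by 5.90 (SE 0.40, adjusted p = 3.51e-07) and Igfbp7, of the insulin-like growth factor binding proteins, by 5.79 (SE 0.35, adjusted p = 1.78e-07). Wfikkn2, whose product binds growth factors of the TGF-beta family, rose by 4.59 (SE 1.01, adjusted p = 0.00354).

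Of 31 tested genes for glycosaminoglycan chain synthesis, whose enzymes make the chains that testicans carry, 15 were called higher and 0 lower, with a median of 1.88. Ext2, a heparan sulfate polymerase subunit, rose by 4.48 (SE 1.22, adjusted p = 0.0125), Dse, a dermatan sulfate epimerase, by 4.19 (SE 0.71, adjusted p = 0.000552) and Ndst3, a heparan sulfate sulfotransferase, by 3.86 (SE 0.74, adjusted p = 0.0014). Ext2 varied widely between endfeet libraries, at 291 ± 461 CPM (SD, n = 6) against 13.0 ± 4.65 CPM (SD, n = 3).

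Of 9 genes for synapse partners and synaptogenic factors, 4 were called higher and 0 lower, with a median of 1.09. Thbs2 and Thbs1 encode thrombospondins, which promote synapse formation, and were low in whole astrocyte libraries. Thbs2 rose by 5.11 (SE 0.69, adjusted p = 9.58e-05) from 2.69 to 93.0 CPM on average. Thbs1 rose by 5.09 (SE 0.93, adjusted p = 0.00101) from 0.498 to 17.2 CPM. Gpc4, a glypican, rose by 2.87 (SE 0.61, adjusted p = 0.00272).

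Of 9 genes for ligands and receptors that SPARC or FSTL1 bind, 5 were called higher and 2 lower, with a median of 3.61. Pdgfb, a growth factor of vessels, rose by 4.58 (SE 0.75, adjusted p = 0.000458), Stab1, a scavenger receptor, by 4.45 (SE 0.60, adjusted p = 0.000101) and Bmp2, a bone morphogenetic protein, by 4.21 (SE 0.997, adjusted p = 0.00552). Vegfa, a growth factor for endothelial cells, fell by 1.46 (SE 0.34, adjusted p = 0.00501) from 86.1 to 31.3 CPM. Dip2a, a receptor for FSTL1, fell by 1.33 (SE 0.43, adjusted p = 0.0293) from 92.9 to 36.7 CPM. The shares called higher in these lists stand beside 20.7% of all tested genes, and no list was tested as a set.

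**Figure D5:**
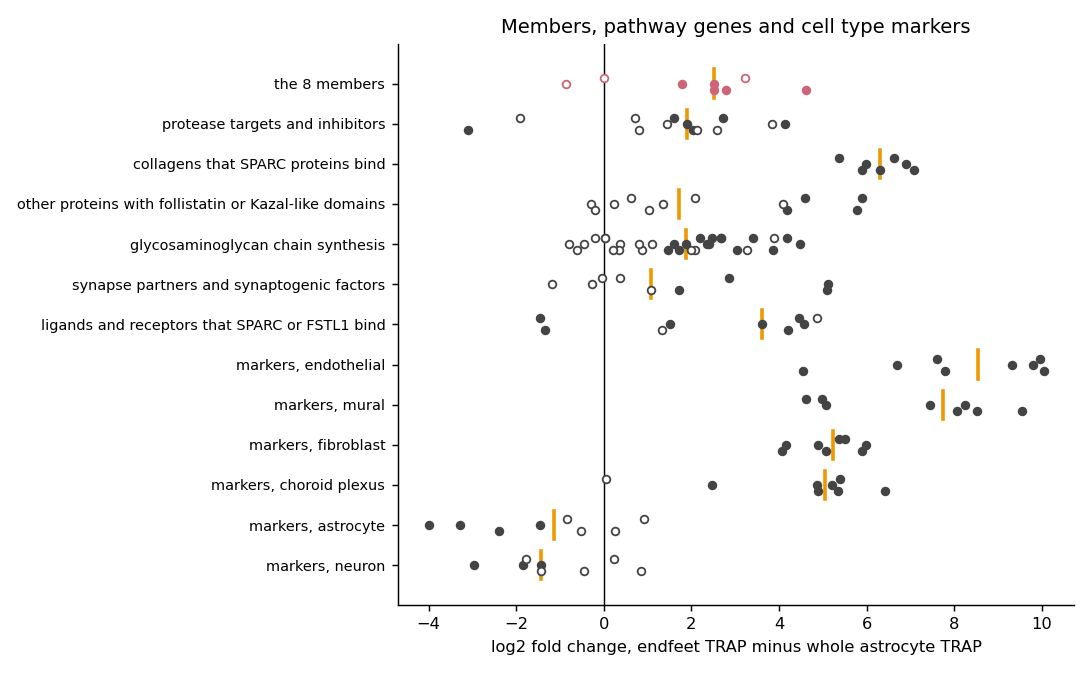
Log2 fold change, endfeet TRAP minus whole astrocyte TRAP, of each tested gene of the family, 6 related gene lists and 6 cell type marker lists (filled, called at an adjusted p of 0.05; open, not called; orange bar, median of the list). The medians were 6.30 for the collagens, 8.55 for endothelial markers and -1.15 for astrocyte markers.

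The genes with profiles most like each member were found from the mean absolute difference over the 9 libraries between log2(CPM + 1) profiles, each centred on its mean. For Spock2 they included Rsad2 and Plec, at differences of 0.203 and 0.208, where the median over all tested genes was 2.18. For Sparc they were Axl, Ginm1 and Atp8a1, at 0.143 to 0.191. Sparcl1 was closest to Sppl2a, Lamp1 and Lmf2, at 0.169 to 0.177, and Fstl1 to Gpc4, Slc36a2 and Ceacam2, at 0.179 to 0.210. The 1 added to CPM shrinks differences at low levels, so a like profile need not mean a like fold change. The log2 fold changes of Gpc4, Slc36a2 and Ceacam2 were 2.87, 3.71 and 7.30, against 2.79 for Fstl1. Smoc1 was closest to Kif4, Sgpl1 and Cthrc1, at 0.170 to 0.212. Differences were larger for the nearest genes of Smoc2 (Fam3a, Ccdc171 and Dock8, 0.237 to 0.308), Spock1 (Ppp2r2d, 6430548M08Rik and Zfp146, 0.228 to 0.248) and Spock3 (Map3k5, Gm42742 and Ift43, 0.238 to 0.302). All profiles share the same 9 libraries, with 3 against 6 of them in the 2 groups.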

How the data were processed

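Polysomal RNA of 3 whole astrocyte TRAP and 6 endfeet TRAP libraries was amplified by the authors with the NuGEN Ovation RNA-Seq system and sequenced. The authors removed short and low-quality reads, aligned the rest to the mm10 genome with Bowtie, dropped reads that matched more than once, and deposited raw counts per Ensembl transcript, made with HTSeq-count 0.5.3 without pooling or normalization. Per the labels, bcl2fastq 1.8.4 was also used. Reads were not spread evenly along Spock2, so CPM per kb is approximate.

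Of 75466 transcripts, 73164 matched GENCODE M21, in 22092 genes, and 2302 were left out. Each gene was read from its transcript with the highest summed CPM, since transcripts of a gene share reads. CPM used TMM library sizes. All 9 libraries were fitted with edgeR 4.0.16 (filterByExpr, glmQLFit and glmQLFTest) in R 4.3.3 without covariates, with Benjamini-Hochberg adjustment over 14427 genes and a threshold of 0.05. SE was obtained by dividing the absolute log2 fold change by √F. Replicates are separate brains or pools of 8 mice. DESeq2 1.42.0, limma 3.58.1, other filters, the library number series, the replicate number, thinning and left-out libraries were alternatives. The fits were also run on simulated counts with the same dispersion in both groups, unlike the 0.014 and 0.705 found here. That simulation cannot show how the fits behave when the spread differs between groups. Tables and figures used Python 3.11.15, pandas 2.3.3, numpy 2.4.6 and matplotlib 3.10.9.

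The members and gene lists were chosen with earlier results of these data known. Counts of calls are given for all marker lists. Summed levels are given for the astrocyte, neuron, endothelial, mural, fibroblast and choroid plexus lists, and for the ependymal list in endfeet 1 only. Genes named in the text are all members, the called genes with the 3 largest fold changes in each direction of each list, and for each member the 3 genes with the smallest profile difference. Of the genes most like Spock2, 1 is not reported here. Of the other marker lists, 8 microglia and macrophage genes gave 5 higher and 0 lower, 8 neuron genes 0 and 3, 8 oligodendrocyte genes 0 and 1, 7 oligodendrocyte precursor genes 2 and 2, and 8 ependymal genes 5 and 0.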

Additional observations from a re-analysis of the deposited data

Results flagged for a closer look

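Among the 8 members, 3 had an endfeet library that stood apart from the other 5 by Dixon's criterion, a gap over 0.625 of the group's range. For normally distributed values, such a gap is exceeded by chance in about 1 of 20 groups. Only the 8 members were examined in this way. The share of all tested genes with such a gap is not known, so the count is not a trait of this family. Smoc1 was 166 CPM in endfeet 1, with the next highest library at 41.6 CPM. Smoc2 was 47.1 CPM in endfeet 1, with the next at 12.7 CPM. Fstl1 was 37.5 CPM in endfeet 6, with the next lowest at 240 CPM. Endfeet 1 had the highest choroid plexus, fibroblast and ependymal marker levels among endfeet libraries, and endfeet 6 had the fewest counts. The part of any of these in the values was not tested.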

How the results depend on the processing

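Spock2, Sparc, Sparcl1 and Fstl1 passed the test in the same direction under all 21 alternatives, and Smoc1 under all 19 that gave it a value, since DESeq2 gave it no adjusted p. Leaving out 1 library at a time gave log2 fold changes of 4.45 to 4.78 for Spock2, 2.30 to 2.71 for Sparc, 1.58 to 1.90 for Sparcl1, 2.54 to 3.02 for Fstl1 and 1.83 to 2.66 for Smoc1. Spock3 was lower and did not pass under any of its 20 alternatives (adjusted p from 0.0792 to 0.76). With at least 10 counts in every library, Spock1, Spock3 and Smoc2 had no value.

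Smoc2 passed under 6 of 20 alternatives: DESeq2 without its prior (3.26), with it (2.99), limma voom (2.30), the replicate block (3.72), without endfeet 6 (3.49) and, chosen after seeing the data, without endfeet 1 and 6 together (2.60). Adjusted p ranged from 0.00555 to 0.419, and leaving out 1 library gave 2.29 to 3.49. Spock1 changed sign under 10 of 20 alternatives, with DESeq2 (0.0142 without and 0.0136 with its prior), DESeq2 size factors in edgeR (0.0048), the library series as a covariate (0.0188), thinned libraries (0.44), endfeet 1 and 6 left out (0.0797) and 4 single libraries left out (all left-out values -0.45 to 0.36). It passed in none. The causes were not tested. The counts of all genes called lower were 4485 with limma voom and 3369 without endfeet 1 and 6. Leaving out 1 library gave 1874 to 3380 higher and 1171 to 2642 lower, lowest where 1 of the 3 whole astrocyte libraries was left out. The median over all genes moved from 0.10 to -0.29 with limma voom and to -0.22 with the replicate block. Without division by length the mean Spock2 share was 3.55% in place of 1.79% in whole astrocyte and 18.02% in place of 9.76% in endfeet libraries. Counts summed over transcripts put Sparc above Sparcl1 in both groups and, in endfeet 3, Spock2 above Sparcl1.

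Replicate numbers 1 to 3 occur in both groups, but their deviations correlated at only -0.0339, 0.00847 and 0.0714. No shared deviation was thus seen. Given the wide spread among endfeet libraries, these values cannot exclude that the numbers pair the samples. The replicate block gave 2501 genes higher and 1958 lower and changed no call of a member other than Smoc2. Spock1, Spock3 and Smoc2 had 0 or 1 counts in endfeet 6. Without this library Spock1 (0.22, adjusted p = 0.826) and Spock3 (-0.62, adjusted p = 0.505) still did not pass.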
